A study of Mus musculus with 3 samples.

Results

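The genes described here are 46 replication and mitosis genes of the mouse, chosen by symbol from a list of genes that dividing cells use, out of 22698 genes with a value. They comprise 30 mitosis genes, 13 replication genes and the 3 transcription factors *E2f1*, *Foxm1* and *Mybl2*. The choice by symbol set no condition on a measured value, but the list was drawn up with earlier results of these data known. Levels were taken from RNA-seq of untreated melan-a cells, an immortalized mouse melanocyte line, in 3 replicates labelled 1, 3 and 4. The labels give the strain background as C57BL/6J and the cells as melanocytes of *Ink4a-ARF*-/- mice. All replicates were grown in RPMI medium with 10% fetal bovine serum, 200 nM of the phorbol ester TPA and 200 pM cholera toxin, and none was treated further. There is 1 condition, so no group of samples could be compared with another, and an exact test over 3 replicates cannot pass a threshold of 0.05. The labels do not say whether the replicates came from separate cultures, so the SDs below (n = 3 throughout) measure only the spread between these samples.

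A cell that divides first copies its DNA and then separates the copies. Before replication, CDC6 and CDT1 load the MCM helicase, a ring of the proteins MCM2 to MCM7, onto origins, and geminin (*Gmnn*) blocks CDT1 once replication has begun. In mitosis, cyclin B with CDK1, the Aurora kinases and PLK1 drive assembly of the spindle, the kinetochores tie chromosomes to it, and the checkpoint proteins hold back the anaphase-promoting complex until all chromosomes are attached. Replication genes are classical targets of E2F factors at the entry into S phase, and mitosis genes are transcribed later, from promoters that carry a cell cycle homology region (CHR) and often CCAAT boxes, bound by complexes with FOXM1 and the MYBL2 protein.

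The cells carried melanocyte markers and almost none of keratinocytes, fibroblasts, endothelial cells or blood cells. Of 10 melanocyte markers, *Tyrp1* was highest with a mean of 3144 FPKM (reads divided by gene length and by library size) and *Kit* lowest with 0.68 FPKM. The summed level was 0.36 to 0.70 FPKM for 6 keratinocyte markers, with *Krt1*, *Trp63* and *Dsg3* at 0, and 1.57 to 1.95 FPKM for 6 fibroblast markers, with *Lum* at 0. It was 0.01 to 0.03 FPKM for 4 endothelial markers and 0.76 to 1.60 FPKM for 4 blood cell markers, among which *Ptprc*, *Cd3e* and *Hbb-b1* were at 0. *Cdkn2a*, the gene given as *Ink4a-ARF*-/- in the labels, measured 19.2, 16.5 and 24.3 FPKM in replicates 1, 3 and 4. The values do not show which of its exons the reads came from, so whether this level conflicts with the label cannot be told. The depth, estimated from the steps that whole reads leave in low FPKM values, was 53900000, 46900000 and 66300000 scaled reads in the same order, which makes 3 reads on a gene of 1 kb worth 0.056, 0.064 and 0.045 FPKM.

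The 5' flanks of the genes held different motifs in the replication and the mitosis group. Promoters of 300 bases, of which 250 precede the transcript start and 50 are transcribed, were taken from RefSeq (GRCm38.p6) for 39 of the 46 genes, of which 3 have more than 1. *Aurkb*, *Incenp*, *Foxm1*, *Mcm4*, *Pbk*, *Gmnn* and *Tpx2* had none in the table. Both strands were searched for TTTGAA (the core of the CHR), CCAAT, and TTTCCCGC or TTTGGCGC (E2F). TTTGAA was found in 19 of 26 mitosis genes, in 1 of 11 replication genes (*Mcm2*) and in 0 of the 2 transcription factors, compared with 17.9% of all 32851 promoters. The E2F letters were found in 6 of 11 replication genes (*Mcm3*, *Mcm5*, *Mcm6*, *Mcm7*, *Cdc6* and *Cdt1*) and in 0 of 26 mitosis genes, compared with 1.56% of all promoters. CCAAT was found in 19 of 26 mitosis genes and in 7 of 11 replication genes, compared with 37.4% of all promoters. TTTGAA and CCAAT stood together in 17 mitosis genes and in 1 replication gene, while 6.95% of all promoters held both. These counts describe letters in a window and were not tested, and no matches of different motifs overlapped. The promoters of the mitosis and replication genes with the highest and the lowest FPKM were compared, with matches in capitals. *Plk1* is at chr7:122159185-122159484 (+ strand), *Cenpe* at chr3:135212313-135212612 (+ strand), *Tk1* at chr11:117825965-117826264 (- strand) and *Cdc6* at chr11:98907901-98908200 (+ strand), all in GRCm38.p6.
*Plk1* promoter: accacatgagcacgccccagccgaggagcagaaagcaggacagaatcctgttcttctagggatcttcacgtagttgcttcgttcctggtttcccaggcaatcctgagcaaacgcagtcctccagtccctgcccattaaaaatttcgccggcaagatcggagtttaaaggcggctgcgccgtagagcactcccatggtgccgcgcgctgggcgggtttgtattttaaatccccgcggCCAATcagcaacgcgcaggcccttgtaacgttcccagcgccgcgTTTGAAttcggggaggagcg
*Cenpe* promoter: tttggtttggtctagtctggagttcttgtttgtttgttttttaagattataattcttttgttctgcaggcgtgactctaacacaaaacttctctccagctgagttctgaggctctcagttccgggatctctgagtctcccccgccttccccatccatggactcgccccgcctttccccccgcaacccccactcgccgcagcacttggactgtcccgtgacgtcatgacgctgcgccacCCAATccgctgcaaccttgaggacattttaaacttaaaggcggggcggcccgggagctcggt
*Tk1* promoter: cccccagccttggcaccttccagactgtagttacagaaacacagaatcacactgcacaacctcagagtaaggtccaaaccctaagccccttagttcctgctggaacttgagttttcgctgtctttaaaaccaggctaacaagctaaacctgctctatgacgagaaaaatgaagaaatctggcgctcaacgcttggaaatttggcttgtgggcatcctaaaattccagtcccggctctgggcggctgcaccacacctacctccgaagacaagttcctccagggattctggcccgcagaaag
*Cdc6* promoter: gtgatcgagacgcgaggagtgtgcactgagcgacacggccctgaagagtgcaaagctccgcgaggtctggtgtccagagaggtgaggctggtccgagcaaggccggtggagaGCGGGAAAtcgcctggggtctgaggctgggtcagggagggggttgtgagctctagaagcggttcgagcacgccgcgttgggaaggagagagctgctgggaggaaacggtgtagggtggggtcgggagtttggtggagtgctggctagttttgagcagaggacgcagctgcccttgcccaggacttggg
*Plk1* held a CCAAT before the start and a TTTGAA after it, *Cenpe* held a CCAAT alone, *Cdc6* held an E2F match on the opposite strand, and *Tk1* held none of the letters searched.

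Most TTTGAA matches lay close to the transcript start. In 18 of the 19 mitosis genes with the letters, at least 1 match began within 50 bases of the start, the exception being *Mki67*, whose matches began at -116 and -98. All matches together began between -179 in *Top2a* and 41 in *Bub1b* for TTTGAA, and between -165 in *Mcm7* and 39 in *Mcm3* for E2F, with 3 of the 6 E2F genes having a match within 50 bases. The stretches of 30 bases around TTTGAA in the 5 mitosis genes with the highest FPKM after *Plk1*, among those with a match within 50 bases, show how the flanks differ around the shared core (position of the first base of the match in brackets).
*Prc1* (-5): cctctggctcggTTTGAAttccgcggggtc
*Cdc20* (-18): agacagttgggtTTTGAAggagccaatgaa
*Ccnb2* (5): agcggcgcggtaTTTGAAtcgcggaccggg
*Ube2c* (-29): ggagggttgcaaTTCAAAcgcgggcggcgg
*Aurka* (33): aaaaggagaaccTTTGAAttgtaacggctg
In *Ube2c* the core is read on the opposite strand. The 5 replication genes with an E2F match other than *Cdc6* are shown in the same way.
*Mcm3* (20): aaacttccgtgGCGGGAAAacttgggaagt
*Mcm5* (-149): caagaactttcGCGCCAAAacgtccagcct
*Mcm6* (-47): gattggacgggTTTGGCGCgaagtagctca
*Mcm7* (-165): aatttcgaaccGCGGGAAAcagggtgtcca
*Cdt1* (33): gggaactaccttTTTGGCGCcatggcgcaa
Among the mitosis genes, the median level was 27.4 FPKM for the 19 with TTTGAA and 18.0 FPKM for the 7 without it. For CCAAT it was 25.5 FPKM with and 22.9 FPKM without the letters in mitosis genes. In replication genes it was 33.0 and 13.2 FPKM for CCAAT. For E2F in replication genes the order was reversed, with 19.1 FPKM with and 47.4 FPKM without a match. These differences in level were not tested.

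**Figure D1:**
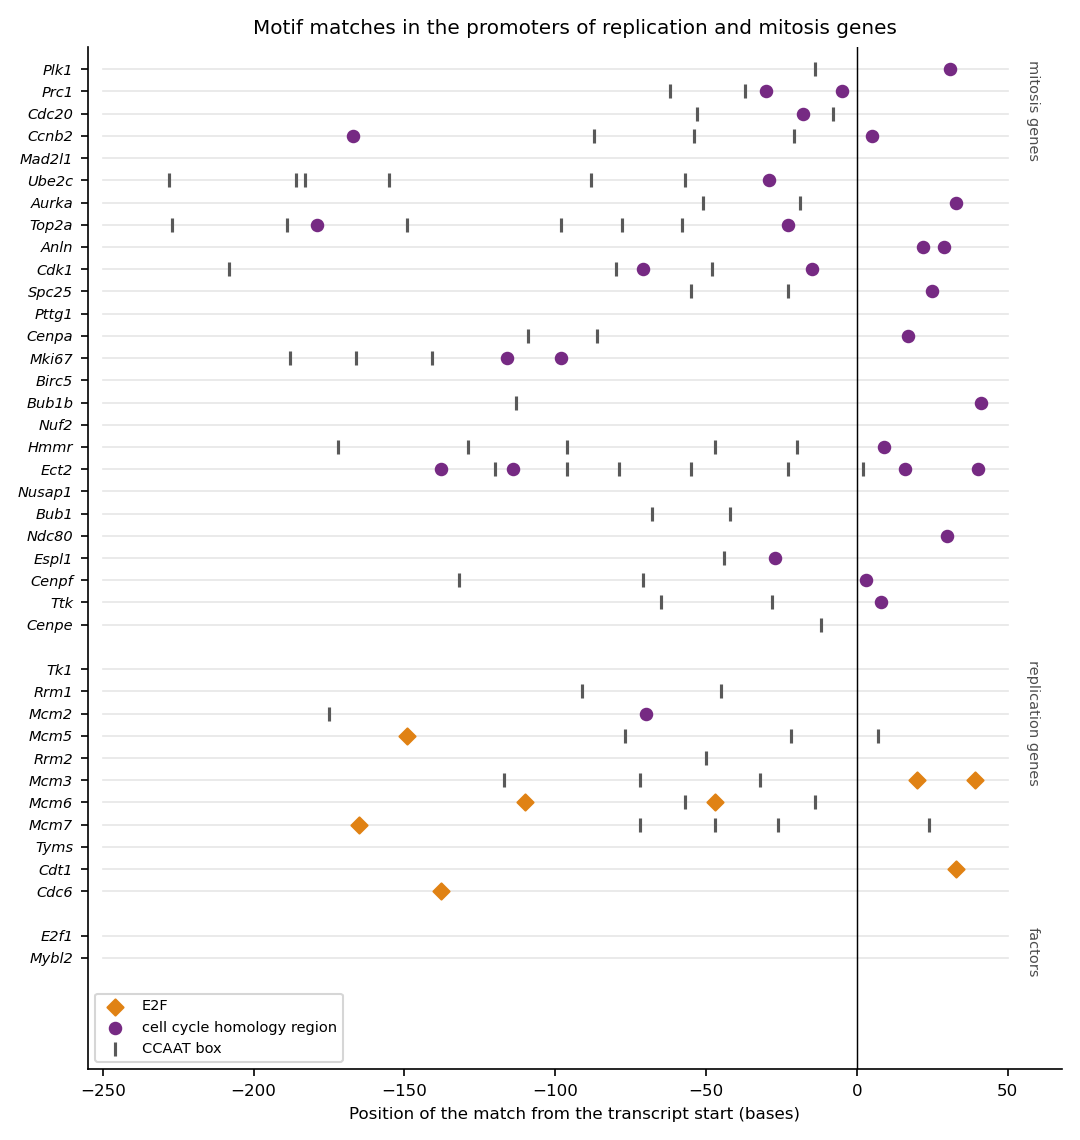
Position of each motif match in the promoters of 39 replication and mitosis genes, in bases from the transcript start (x axis). Rows are genes, sorted within the mitosis, replication and transcription factor groups by mean FPKM. CHR matches (circles) are seen in 19 of 26 mitosis genes and E2F matches (diamonds) in 6 of 11 replication genes.

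All 46 genes were expressed, with at least 1 FPKM in every replicate, as were 10011 genes in all. Their median level was 25.4, 24.7 and 25.9 FPKM in replicates 1, 3 and 4, and thus differed between replicates by an SD of 0.63 FPKM. The mean over replicates ranged from 3.89 FPKM for *Cdc6* to 72.6 FPKM for *Plk1*, with a median of 25.5 FPKM, compared with a median of 11.2 FPKM over all expressed genes. Of the 46 genes, 37 lay above that median, 16 were among the 2000 highest genes and 1, *Plk1*, among the 1000 highest, although *Tk1* and *Prc1* would stand above *Plk1* by the length of their longest transcripts. FPKM is a level per length, so genes can be compared by it, but in bulk RNA a larger share of dividing cells and more RNA in each dividing cell cannot be told apart. The gene with the fewest reads, *Gmnn* in replicate 3, still had about 226 reads, which gives a counting error of 6.65%. In 43 of the 46 genes the spread between replicates was larger than the counting error.

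**Figure D2:**
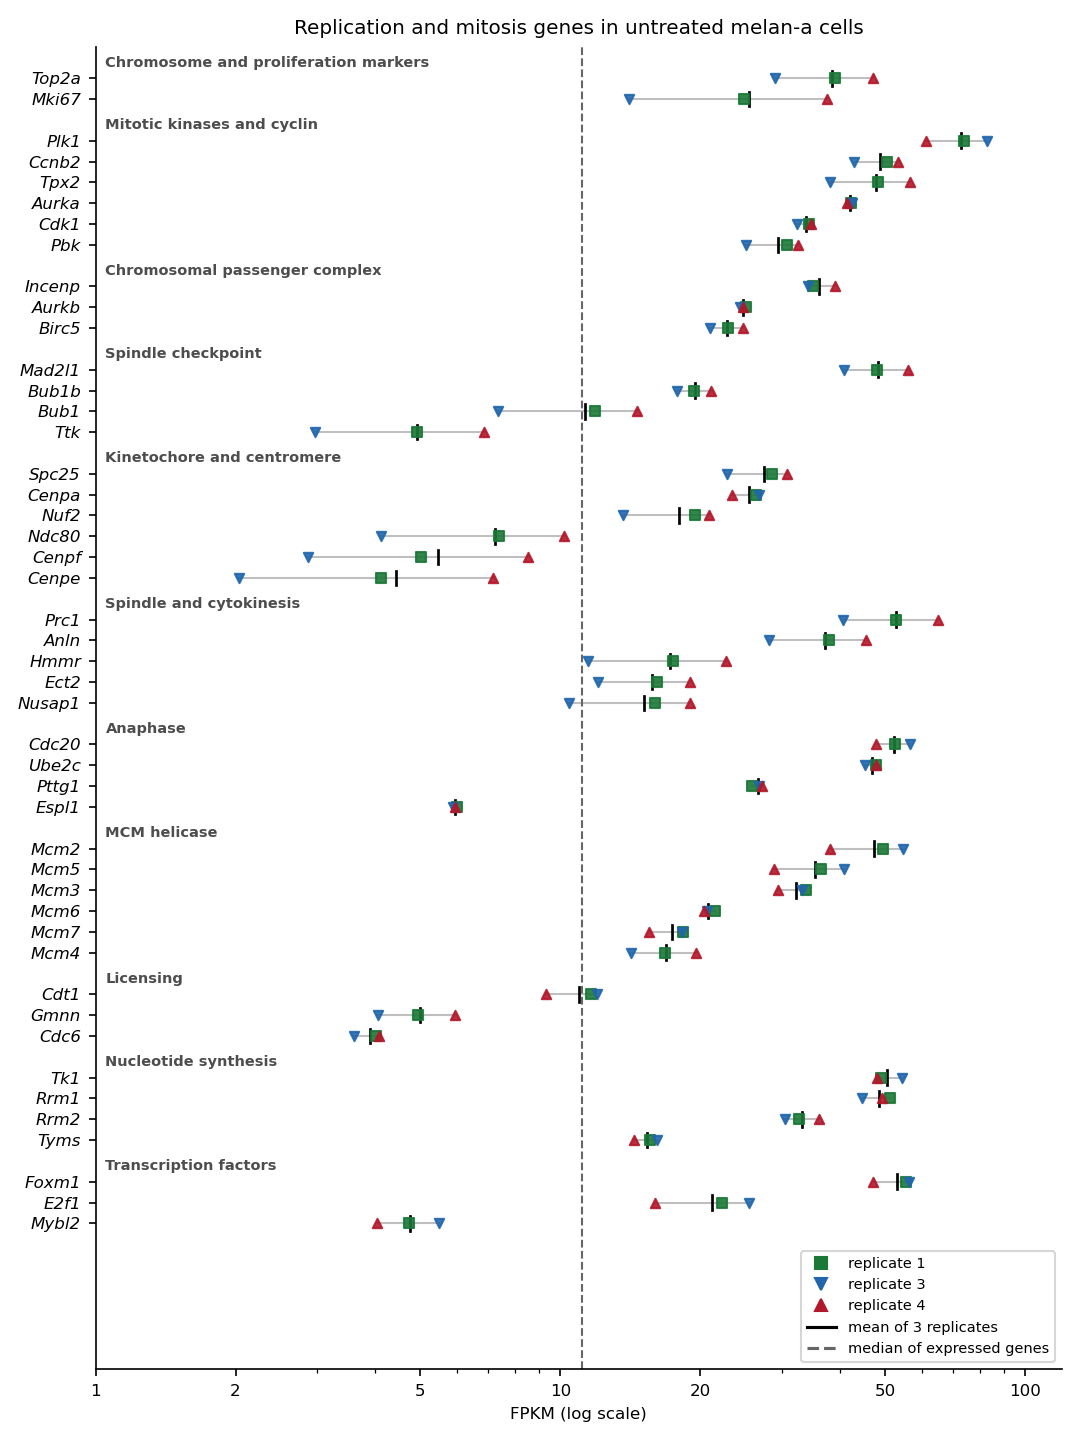
FPKM (log scale) of each of the 46 genes in replicates 1, 3 and 4, grouped by role, with the mean as a black tick and the median of expressed genes (11.2 FPKM) as a dashed line. *Plk1* is the highest with a mean of 72.6 FPKM and *Cdc6* the lowest with 3.89 FPKM, and *Cenpe*, *Cenpf* and *Mki67* have the widest spread.

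The mitotic kinases and their partners had the highest median of any role, with 44.8 FPKM over 6 genes. *Plk1* (mm9 chr7:129302951-129313389), the Polo-like kinase, measured 73.9, 82.8 and 61.2 FPKM in replicates 1, 3 and 4 (mean 72.6 ± 10.9). It was lowest in replicate 4, unlike most mitosis genes. *Cdk1*, the catalytic partner of cyclin B, measured 34.3, 32.2 and 34.6 FPKM. *Ccnb2*, which encodes cyclin B2, measured 50.4, 42.8 and 53.2 FPKM, and the ratio of *Cdk1* to *Ccnb2* was 0.69 ± 0.05. *Aurka*, the Aurora kinase of spindle poles, was nearly level with 42.2, 42.5 and 41.4 FPKM. *Tpx2*, which activates Aurora A on spindle microtubules, was not level, with 48.3, 38.0 and 56.6 FPKM. The ratio of *Aurka* to *Tpx2* was therefore 1.12 in replicate 3 and 0.73 in replicate 4 (mean 0.91 ± 0.20). *Pbk*, a mitotic kinase, measured 30.7, 25.1 and 32.4 FPKM.

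The chromosomal passenger complex corrects faulty attachments of chromosomes. Its kinase gene *Aurkb* measured 25.0, 24.3 and 24.7 FPKM in replicates 1, 3 and 4, *Incenp*, its scaffold, 34.9, 34.1 and 39.0 FPKM, and *Birc5* (survivin) 23.0, 21.0 and 24.7 FPKM. The 3 subunits were thus within a narrow range, with means of 22.9 to 36.0 FPKM. The spindle checkpoint genes were spread more widely. *Mad2l1*, whose product inhibits CDC20, had a mean of 48.2 ± 7.5 FPKM, *Bub1b* (BUBR1) 19.5 ± 1.6 FPKM, *Bub1* 11.3 ± 3.7 FPKM and *Ttk*, the MPS1 kinase that starts the checkpoint signal, 4.90 ± 1.94 FPKM. *Ttk* measured 4.91, 2.96 and 6.84 FPKM and *Bub1* measured 11.9, 7.33 and 14.6 FPKM in replicates 1, 3 and 4. All 4 checkpoint genes were lowest in replicate 3 and highest in replicate 4, an order held by 37.2% of expressed genes.

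Kinetochore genes held some of the lowest levels of the set. *Cenpa*, the histone variant of centromeres, had a mean of 25.5 ± 1.8 FPKM. Within the NDC80 complex, which binds microtubules, *Spc25* had 27.4 ± 4.1 FPKM, *Nuf2* 18.0 ± 3.9 FPKM and *Ndc80* 7.23 ± 3.03 FPKM. *Cenpe*, a kinesin motor of kinetochores, measured 4.12, 2.03 and 7.15 FPKM in replicates 1, 3 and 4, and *Cenpf*, a large coiled-coil protein, measured 5.02, 2.87 and 8.51 FPKM. The level of *Cenpe* in replicate 4 was 3.52 times that in replicate 3, the widest ratio between any replicates of the 46 genes. *Ndc80* followed the same order with 7.39, 4.12 and 10.2 FPKM.

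Genes of the midzone and cytokinesis included *Prc1*, which bundles antiparallel microtubules, with 52.8, 40.5 and 65.0 FPKM, and *Anln* (anillin), with 37.9, 28.1 and 45.4 FPKM. *Ect2*, which activates RhoA at the cleavage furrow, had a mean of 15.8 ± 3.5 FPKM, *Nusap1* 15.1 ± 4.3 FPKM and *Hmmr* 17.2 ± 5.6 FPKM. All 5 were lowest in replicate 3 and highest in replicate 4, an order held by 37.2% of expressed genes. All 5 also have less than 45% G and C in their exons. In that range 93.5% of expressed genes were higher in replicate 4 than in replicate 3. As deposited, the anaphase genes were steadier. Their exons hold 46.65 to 56.11% G and C. The median log2 ratio of replicate 4 to 3 was 0.02 for these 4 genes and 0.69 for the 5 above. With the median of genes alike in GC and adenine content subtracted, it was 0.13 and 0.16. *Cdc20*, an activator of the anaphase-promoting complex, measured 52.5, 56.6 and 47.8 FPKM and stood at 1.90 ± 0.22 times its paralog *Fzr1*, the activator used from late mitosis into G1. *Ube2c*, the ubiquitin-conjugating enzyme of that complex, measured 47.7, 45.2 and 47.8 FPKM. Securin (*Pttg1*) and separase (*Espl1*), its protease partner, had means of 26.6 ± 0.7 and 5.93 ± 0.06 FPKM, and their ratio was 4.48 ± 0.14. *Espl1* had the smallest spread of the 46 genes as deposited, with 5.99, 5.87 and 5.93 FPKM. This spread, 1.0% of its mean, was below its counting error of 2.3%. Its log2 ratio of replicate 4 to 3 was 0.01 as deposited and 0.43 after subtraction by GC and adenine content.

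*Top2a*, the topoisomerase that untangles sister chromatids, measured 39.0, 29.0 and 47.1 FPKM in replicates 1, 3 and 4, and *Mki67*, the gene of the Ki-67 antigen, measured 24.9, 14.1 and 37.4 FPKM. Both differed more between replicates than most of the set. The ratio of *Top2a* to *Top2b*, the paralog that does not depend on proliferation, was 2.42, 2.44 and 2.28, a narrower spread than that of *Top2a* itself. *Top2b* varied in the same order, with 16.1, 11.9 and 20.6 FPKM. The log2 ratio of replicate 4 to 3 was 0.79 for *Top2b* and 0.70 for *Top2a*. The mean ratio of the 2 genes becomes 3.68 by the length of the longest transcripts.

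The 6 MCM subunits form a ring with 1 copy of each, but their transcripts were not level. *Mcm2* measured 49.5, 54.6 and 38.0 FPKM in replicates 1, 3 and 4, *Mcm5* 36.4, 40.7 and 28.9 FPKM, and *Mcm3* 33.8, 33.1 and 29.3 FPKM. *Mcm6* measured 21.5, 20.7 and 20.3 FPKM, *Mcm7* 18.4, 18.3 and 15.5 FPKM, and *Mcm4* 16.8, 14.2 and 19.6 FPKM. The highest subunit was *Mcm2* in every replicate and stood at 2.95, 3.85 and 2.45 times the lowest. The lowest was *Mcm4* in replicates 1 and 3 and *Mcm7* in replicate 4. The joined exons of *Mcm7* are 1.49 times as long as its longest transcript. By the length of the longest transcripts, *Mcm4* would be the lowest in every replicate and the ratios would be 2.95, 3.85 and 1.94. As deposited, *Mcm2* took 27.7 ± 2.5% of the summed level of the 6 genes and *Mcm7* 10.2 ± 0.2%. *Mcm4* was higher in replicate 4 than in replicate 3 and the other 5 were higher in replicate 3, except that *Mcm6*, with a log2 ratio of -0.02, turned when the replicates were rescaled to a common total.

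Licensing genes were among the lowest of the set. *Cdc6*, the loader of the helicase, measured 4.01, 3.60 and 4.07 FPKM, *Cdt1*, its partner, 11.6, 12.0 and 9.30 FPKM, and *Gmnn*, the inhibitor of CDT1, 4.93, 4.06 and 5.94 FPKM. *Cdt1* and *Gmnn* thus ran in opposite order across the replicates, and their ratio was 2.35, 2.95 and 1.57. The genes for nucleotide synthesis were higher, with a median of 40.7 FPKM. Ribonucleotide reductase was represented by *Rrm1* with 51.2, 44.6 and 49.3 FPKM and *Rrm2* with 32.6, 30.5 and 36.0 FPKM, at a ratio of 1.47 ± 0.10. *Rrm2* stood at 9.67 ± 1.89 times *Rrm2b*, the p53-induced subunit. *Tk1*, the thymidine kinase of S phase, measured 48.9, 54.3 and 48.1 FPKM and stood at 7.13 ± 0.32 times the mitochondrial *Tk2*, a ratio that becomes 25.7 by the length of the longest transcripts. *Tyms* (thymidylate synthase) had a mean of 15.4 ± 0.9 FPKM.

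Of the transcription factors, *Foxm1*, which drives mitosis genes, measured 55.4, 56.4 and 47.1 FPKM in replicates 1, 3 and 4 and was the second highest of the 46 genes by mean. *E2f1* measured 22.3, 25.4 and 16.0 FPKM, and *Mybl2* (B-MYB) measured 4.73, 5.48 and 4.04 FPKM. All 3 were highest in replicate 3 and lowest in replicate 4, opposite to most mitosis genes. This order was held by 39.5% of expressed genes. The exons of *E2f1*, *Mybl2* and *Foxm1* hold 58.5%, 55.4% and 54.0% G and C. Of expressed genes with 55% or more, 6.66% were higher in replicate 4 than in replicate 3. From 50 to 55%, 25.5% were.

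Lists of related genes that were not in the set had lower medians, which are given as a description. Of 43 other replication genes, 22 lay above the median of expressed genes, with a median of 11.3 FPKM. The highest were *Pcna*, the sliding clamp, with 68.4 ± 2.1 FPKM, *Rpa1* with 43.5 ± 2.3 FPKM and *Pold2* with 36.6 ± 6.3 FPKM, and the lowest was *Orc1*, a subunit of the origin recognition complex, with 0.92 ± 0.14 FPKM. Of 73 other mitosis genes, 39 lay above it, with a median of 12.0 FPKM and a range from 2.36 FPKM for *Kif18a* to 88.7 FPKM for *Bub3*. These medians compare with 20.8 FPKM for the 13 replication genes and 26.0 FPKM for the 30 mitosis genes described here. Of 26 paralogs, 8 lay above the median of expressed genes, led by *E2f4* with 28.2 ± 0.6 FPKM and *Fzr1* with 27.9 ± 5.1 FPKM. Among the paralogs, *Aurkc*, *Ccnb3*, *Cdc20b* and *Gmnc*, relatives of *Aurkb*, *Ccnb2*, *Cdc20* and *Gmnn* that serve germ cells or multiciliated cells, were listed at 0 in all replicates. For *Aurkc*, 3 reads would amount to 0.067 FPKM in the shallowest replicate.

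**Figure D3:**
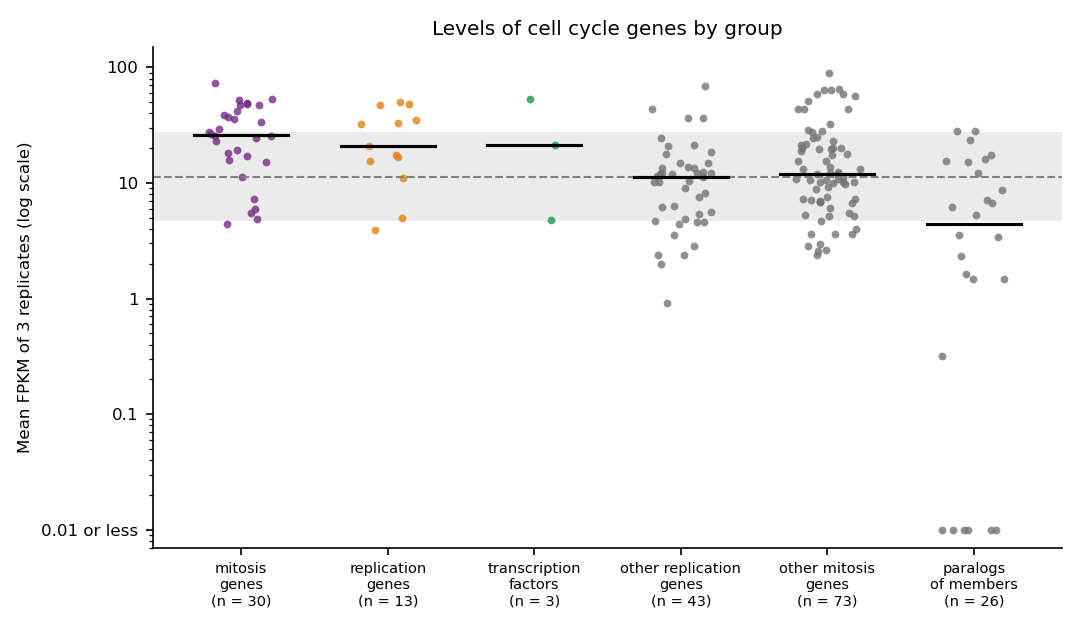
Mean FPKM of 3 replicates (log scale) for each gene of the 3 groups described here, of 43 other replication genes, 73 other mitosis genes and 26 paralogs. Black bars are medians, the dashed line and band are the median and quartiles of all expressed genes, and points at the bottom are genes at 0.01 FPKM or less. The mitosis genes (median 26.0 FPKM) and replication genes (20.8 FPKM) lie higher than the other lists (11.3 and 12.0 FPKM).

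Although the median of the set was level across replicates, the median ratios of its mitosis and replication genes had opposite signs as deposited. In log2 units, the median ratio of replicate 4 to replicate 3 was 0.44 for the 30 mitosis genes, -0.16 for the 13 replication genes and -0.44 for the 3 transcription factors, compared with -0.02 over all expressed genes. Of the mitosis genes 26 of 30 were higher in replicate 4 than in replicate 3, while 8 of 13 replication genes and 3 of 3 transcription factors were higher in replicate 3. Of all expressed genes, 48.5% were higher in replicate 4 than in replicate 3. Among expressed genes with less than 45% G and C in their exons, 93.5% were. That range holds 15 of the 30 mitosis genes. When each replicate was rescaled to the same total outside the mitochondrial genome, every gene shifted by 0.16 on this scale. All expressed genes then had a median of 0.15, mitosis genes 0.61 and transcription factors -0.28. The replication genes had 0.0046, with 6 of 13 higher in replicate 3. Since the shift was the same for every gene, their median stayed below that of all expressed genes. With a threshold of 25%, 19 of the 46 genes had a higher level in replicate 4 than in 3 (17 mitosis genes, *Mcm4* and *Gmnn*), compared with 24.4% of all expressed genes. In the other direction were 6 genes (*Plk1*, *Mcm2*, *Mcm5*, *Cdt1*, *E2f1* and *Mybl2*), compared with 23.6%. After rescaling, 25 genes were past the threshold towards replicate 4 (35.4% of expressed genes) and *Mcm2*, *Mcm5* and *E2f1* towards replicate 3 (11.7%). Each replicate is 1 sample, so these are differences between libraries with no replicate check.

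Replicate 1 lay between the others for most of the set, as it did for most expressed genes. The order was 4, 1, 3 from high to low in 27 of the 46 genes (37.2% of expressed genes) and 3, 1, 4 in 12 (39.5% of expressed genes). At the threshold of 25%, 15 genes were higher in replicate 1 than in replicate 3, all of them mitosis genes, compared with 11.2% of expressed genes, and 0 were higher in replicate 3 than in replicate 1, compared with 2.25%. Replicate 4 exceeded replicate 1 in 6 genes (*Mki67*, *Ttk*, *Cenpe*, *Cenpf*, *Ndc80* and *Hmmr*), compared with 11.5%, and replicate 1 exceeded replicate 4 in 3 genes (*Mcm2*, *Mcm5* and *E2f1*), compared with 11.4%. The last 2 shares of the set, 13% and 6.52%, were close to or below the background. Of the expressed genes in the other lists, 40 of 73 other mitosis genes (54.8%) and 19 of 42 other replication genes (45.2%) were at least 25% higher in replicate 4 than in replicate 3, compared with 24.4% of all expressed genes, and 9.59% and 7.14% were past it in the other direction, compared with 23.6%. The paralogs were close to these backgrounds, with 27.8% and 22.2% of 18 genes. The median log2 ratio of replicate 4 to 3 was 0.29 for the 43 other replication genes and 0.37 for the 73 other mitosis genes. The negative median of the 13 replication genes was thus not seen in the other replication genes as deposited. The 2 lists differ in composition, with a median of 50.5% G and C for the 13 and 47.2% for the 43. With the median of genes of like GC content subtracted, the median log2 ratios were -0.02 and 0.09.

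The ratio between replicates followed the base composition of the transcripts. Across the 46 genes, which are not independent replicates and share the same libraries, Spearman's rho of the log2 ratio of replicate 4 to 3 was 0.91 with the share of adenine in the joined exons and -0.84 with the share of G and C. Over all expressed genes it was 0.78 and -0.78. The genes with at least 30% adenine were *Mki67*, *Top2a*, *Bub1*, *Ttk*, *Cenpe*, *Cenpf*, *Ndc80*, *Nuf2*, *Nusap1* and *Hmmr*, 10 mitosis genes in all and 0 replication genes, while 7.21% of expressed genes had as much. Among them *Cenpe*, *Cenpf*, *Ndc80*, *Nuf2* and *Hmmr* encode long coiled-coil proteins. The log2 ratios of the 10 genes ranged from 0.62 to 1.82 with a median of 1.10, compared with a median of 0.71 over all 722 expressed genes with at least 30% adenine. Below 24% adenine, the median was -0.25 over 14 genes of the set and -0.33 over 3999 expressed genes.

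The contrast in composition can be read from coding stretches of 120 bases whose share of adenine is nearest to that of the whole gene, shown for the 2 genes with the most and the 2 with the least adenine, with adenine in capitals. *Cenpe* (36.5% adenine) is shown at mm9 chr3:134891726-134891845 (+ strand, exon 13) and *Mki67* (35.1%) at chr7:142884773-142884892 (- strand, exon 13). *E2f1* (18.6%) is shown at chr2:154386455-154386574 (- strand, exon 7) and *Cdt1* (20.6%) at chr8:125093016-125093135 (+ strand, exon 2).
*Cenpe* exon: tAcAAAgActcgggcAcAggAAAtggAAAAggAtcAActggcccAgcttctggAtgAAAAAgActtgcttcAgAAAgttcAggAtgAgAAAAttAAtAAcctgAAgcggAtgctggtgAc
*Mki67* exon: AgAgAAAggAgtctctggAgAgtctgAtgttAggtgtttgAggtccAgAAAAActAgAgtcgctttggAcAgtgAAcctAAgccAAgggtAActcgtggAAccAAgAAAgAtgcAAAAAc
*E2f1* exon: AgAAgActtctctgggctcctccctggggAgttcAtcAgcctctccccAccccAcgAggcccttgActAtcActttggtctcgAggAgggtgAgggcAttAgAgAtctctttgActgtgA
*Cdt1* exon: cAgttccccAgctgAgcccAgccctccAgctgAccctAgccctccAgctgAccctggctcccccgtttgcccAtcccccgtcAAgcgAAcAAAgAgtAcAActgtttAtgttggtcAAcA
The stretches hold 44, 42, 22 and 25 adenines. As deposited, *Cenpe* and *Mki67* were highest in replicate 4 and lowest in replicate 3, with log2 ratios of 1.82 and 1.41. *E2f1* and *Cdt1* ran the other way as deposited, with -0.67 and -0.36.

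**Figure D4:**
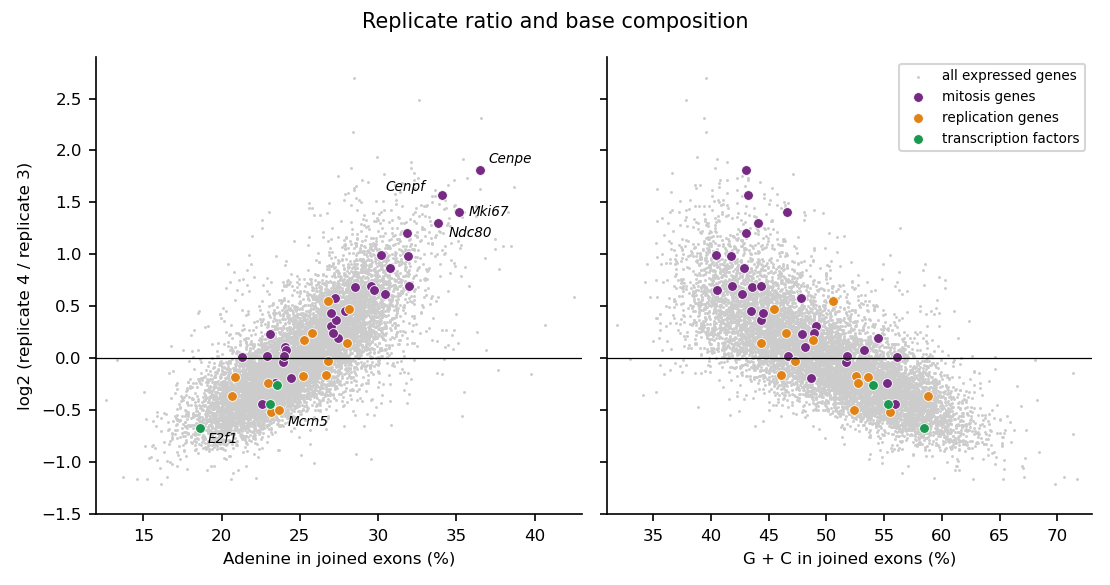
Log2 ratio of replicate 4 to replicate 3 (y axis) against the share of adenine (left) and of G and C (right) in the joined exons of each gene. Grey points are all expressed genes and coloured points the 46 genes by group. The ratio is higher with more adenine in the 46 genes (rho 0.91) as in all genes (rho 0.78), and *Cenpe*, *Cenpf*, *Mki67* and *Ndc80* lie at the upper end.

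When the median ratio of genes with like GC content was subtracted, the difference between the groups narrowed. The median log2 ratio of replicate 4 to 3 was then 0.19 for mitosis genes, -0.02 for replication genes and -0.12 for the transcription factors. At 25%, 14 of the 46 genes were higher in replicate 4 (13 mitosis genes and *Gmnn*), compared with 14% of expressed genes, and *Mcm5* and *Tyms* were higher in replicate 3, compared with 9.44%. With the median of genes alike in both GC and adenine content subtracted, 10 genes were higher in replicate 4, compared with 12.2%. Of these, *Mki67*, *Tpx2*, *Bub1*, *Ttk*, *Cenpe*, *Cenpf*, *Ndc80* and *Gmnn* were 8 of the 19 genes past the threshold as deposited, and *Incenp* and *Espl1* were not among the 19. *Tyms* was higher in replicate 3, compared with 8.43%. By these bins the median log2 ratio was 0.17 for mitosis genes, 0.0076 for replication genes and -0.038 for the transcription factors. The replication genes thus no longer had a negative median. *Cenpe* then still had a log2 ratio of 1.11, *Mki67* 1.03, *Cenpf* 0.86 and *Ndc80* 0.59. *Top2a* changed from 0.70 to -0.24 and *Hmmr* from 0.98 to 0.05. The adenine shares of *Cenpe* and *Mki67* lie near the end of the range over all genes, and how well their bins stand for them was not tested. Whether any of the remaining difference came from the cells was not tested either.

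**Figure D5:**
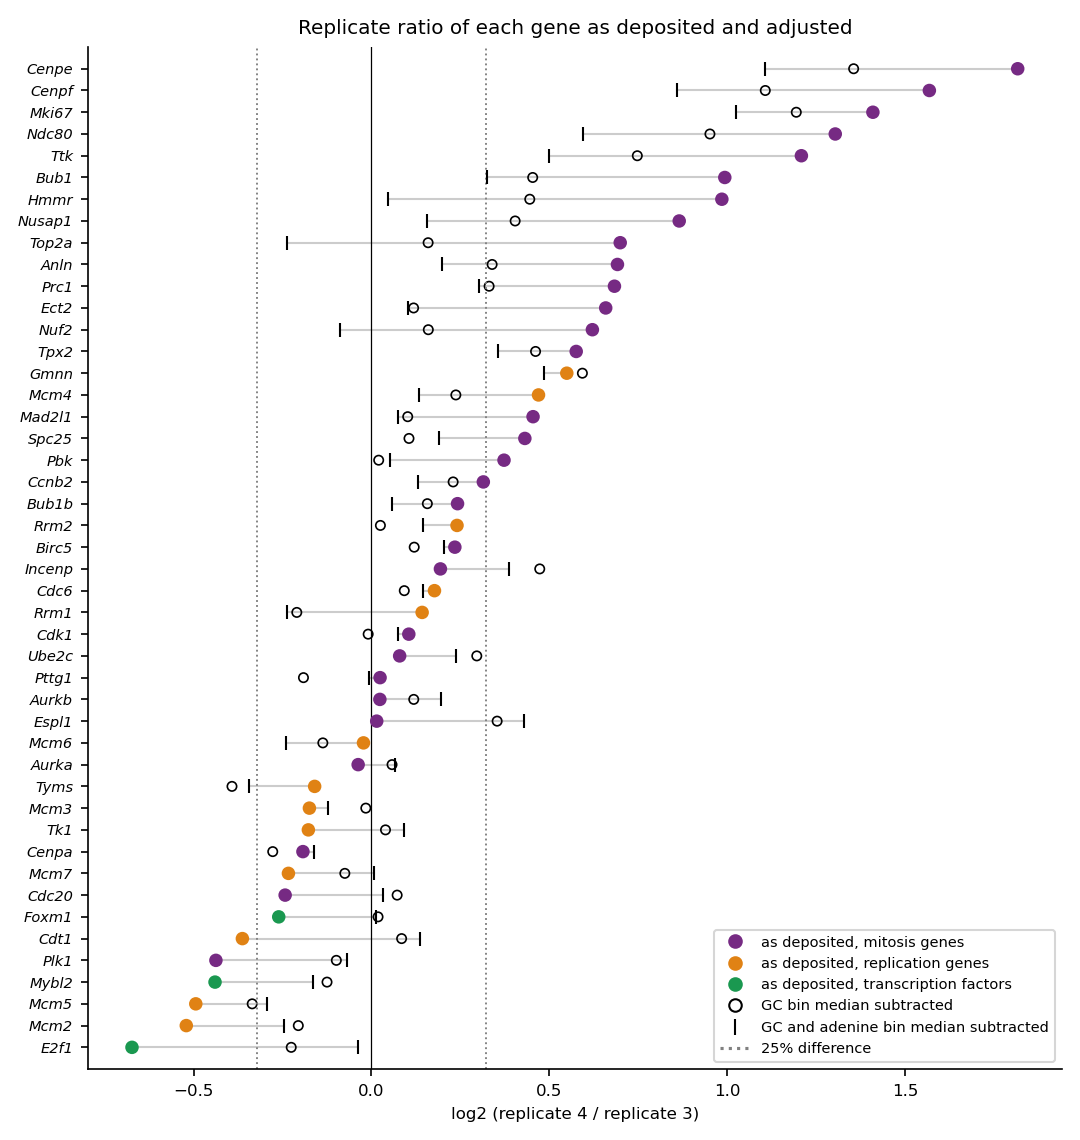
Log2 ratio of replicate 4 to replicate 3 for each of the 46 genes as deposited (filled circles, coloured by group), with the median of the GC bin subtracted (open circles) and with the median of the GC and adenine bin subtracted (ticks). Dotted lines mark a level 25% higher in either replicate. As deposited 19 genes lie right of the upper line, and 10 do after subtraction of the GC and adenine bin, 8 of them among the 19.

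The order of the genes by level depended on the length that the FPKM values were divided by. In the 4 to 10 genes per replicate with several transcripts that allowed a check, low values came close to whole reads when each gene's joined exons were taken as that length. By its longest protein-coding transcript instead, *Tk1* would stand at 182 ± 12 FPKM and be the highest of the set, since its joined exons are 3.61 times as long, and *Prc1* would stand at 142 ± 33 FPKM. *Spc25* would change 2.09-fold, *Cenpa* 1.85-fold and *Top2a* 1.74-fold, and *Cdc6* was the lowest by either length. *Cdc20*, *Cdc6*, *Mcm7*, *Pbk*, *Plk1*, *Prc1* and *Tk1* each have 1 further place in the genome, outside the genes listed, that resembles at least 50% of their transcript at 90% identity or more. Reads shared with these copies may have been counted or lost, so the levels of these 7 genes are less certain.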

How the data were processed

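The authors deposited FPKM values per gene for each replicate, after TMM scaling, with 2 decimals. Per the labels, libraries were made from total RNA with a stranded mRNA kit. The submitters' processing notes name CASAVA 1.8.2, STAR 2.3.0e, SAMtools, HTSeq 0.5.3p3, edgeR and mm9. The length used for FPKM is not given in the sources used here.

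FPKM values are not counts, so no count test was applied. Positions, exons and base composition were read from the Ensembl 65 gene models on mm9, which lack 374 of the 22698 genes. A gene was called expressed at 1 FPKM or more in all replicates. Log2 ratios used no pseudocount. Ratios were adjusted by the median of expressed genes in 20 bins of GC content, or in 10 bins of GC content with 5 bins of adenine content or length within each. Copies were searched with minimap2 2.31. Means, SDs and ratios were computed in Python 3.11.15 with numpy 2.4.6 and pandas 2.3.3, and the methods were tested on simulated data. The genes, lists and motifs were chosen with earlier results of these data known. All members may be named; from other lists, the 3 highest and 3 lowest genes, genes of 9 fixed ratios and *Cdkn2a*. *Ticrr* matched no single gene and was not analysed here. Bins of adenine or length, the longest transcript, and the motif stretches and exon stretches shown were chosen after seeing the data. Alternatives were each replicate left out, rescaling, the median over replicates, pseudocounts of 0.1 and 1 FPKM, other filters, a threshold of 1.5-fold and leaving out genes with copies. The level of a further list of cell type markers is not reported here.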

Additional observations from a re-analysis of the deposited data

How the results depend on the processing

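No paired analysis was possible because the series has 1 condition. Leaving out 1 replicate, the median of the 46 genes was 25.2 to 25.7 FPKM, 36 or 37 of them lay above the median of expressed genes, and *Mcm2* to *Mcm7* spanned 2.58 to 3.36-fold by their means, against 2.81-fold with all replicates. Rescaling each replicate to 1000000 outside the mitochondrial genome put the median at 76.1 FPKM and the median log2 ratio of replicate 4 to 3 at 0.38, against 0.21 as deposited. Without the 7 genes that have copies the median was 24.7 FPKM. By the longest protein-coding transcript, an alternative chosen after seeing the data, it was 31.2 FPKM, and ratios moved to 1.35 for *Cdc20* to *Fzr1*, 5.35 for *Pttg1* to *Espl1*, 3.68 for *Top2a* to *Top2b*, 1.16 for *Rrm1* to *Rrm2*, 25.7 for *Tk1* to *Tk2*, 0.83 for *Cdk1* to *Ccnb2* and 1.12 for *Aurka* to *Tpx2*, since the ratio of the lengths enters each. At least 25% higher in replicate 4 than in replicate 3 were 19 genes as deposited, 10 with bins of GC content and length and 10 with bins of GC and adenine content, both added after seeing the data. In each case 8 of the 10 were among the 19, and *Incenp* and *Espl1* were not. With bins of GC content, of GC and length, and of GC and adenine, the median log2 ratio of replicate 4 to 3 was 0.11, 0.10 and 0.097, and that of replicate 4 to 1 was 0.026, 0.0065 and 0.0081, against 0.079 as deposited. No median ratio of the 46 genes together changed its sign under the alternatives run. The median ratio of replicate 4 to 3 of the 13 replication genes did change its sign. It was -0.16 as deposited and 0.0046 after rescaling. Rescaling shifted every gene alike, so it left this median below that of all expressed genes. With bins of GC and length it was 0.049, and with bins of GC and adenine 0.0076. In all, 81 values, the binned ratios included, moved by less than 1 SD between replicates or, for counts, by less than 1.5 times. Another 13 values under the alternatives moved by more. For log2 ratios the SD was 0.12, the SD of the median deviation of the 46 genes from their means. The 81 include values fixed in advance, since leaving out 1 replicate or taking the median cannot move a mean over the replicates by 1 SD. Likewise, a ratio between 2 replicates does not change when the remaining replicate is left out. The 81 are therefore no measure of stability. With 1 sample per replicate number, differences between replicates have no error of their own.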
